A study of Mus musculus with 6 samples.

Results

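The genes described here encode the machinery that copies DNA in S phase, together with the E2F transcription factors that control many of these genes. A list of 58 mouse genes was used, and each gene was represented by the probe set, among those annotated to that gene alone, with the highest mean over all 6 arrays. Of the 58 genes, 56 were measured in this way, out of 17097 genes in all. Orc3 and Chaf1a had no such probe set and are not analysed here. The genes were grouped by their function in replication.

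The arrays were made from remnant liver of C57Bl/6 mice taken 12 h after 70% partial hepatectomy, in which most of the organ is cut away and the remnant regenerates. There were 3 DeltaKlf6 mice, in which the zinc-finger transcription factor gene Klf6 was deleted in hepatocytes, and 3 wildtype mice as controls. All 6 animals had the operation, no unoperated liver or other time point was analysed here, and each array was 1 animal out of 6 per group in the overall study. The labels do not name the Cre line, the animals' age or their sex. The comparison asks whether loss of Klf6 in hepatocytes alters gene expression in the regenerating liver.

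DNA replication is prepared before S phase, when the origin recognition complex, with CDC6 and CDT1, loads the MCM helicase onto origins. The kinase CDC7 with DBF4, then CDC45 and the GINS complex, turn the loaded helicase into an active fork, where polymerases and the PCNA clamp copy the strands from a supply of deoxynucleotides. E2F factors, held in check by the retinoblastoma family, switch on many of these genes as cells leave quiescence. In adult liver most hepatocytes are quiescent, partial hepatectomy brings them back into the cycle, and in mice their main wave of DNA synthesis comes later than the time sampled here.

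Values are log2 expression levels after the RMA method, so a difference of 1 is a 2-fold change, and differences are DeltaKlf6 minus wildtype throughout. Levels of different genes are not compared, since each probe set has its own sensitivity. Albumin, the main secreted protein of hepatocytes, was at 12.53 to 13.34 in the libraries labelled DeltaKlf6 and at 12.72 to 13.02 in wildtype. Klf6 was not low in every library of its group. In the library labelled DeltaKlf6 1 its 3 probe sets were at 5.81, 5.88 and 7.03, above the highest wildtype values of 4.03, 4.44 and 5.20. In the libraries labelled DeltaKlf6 2 and DeltaKlf6 3 they were at 2.82, 4.12 and 4.61 and at 2.83, 3.74 and 3.15. The lowest wildtype values, in the same order of probe sets, were 3.41, 3.73 and 4.43. DeltaKlf6 2 was below wildtype only at 2.82, and its values of 4.12 and 4.61 lay inside the wildtype range. DeltaKlf6 3 was below wildtype at 2.83 and 3.15, and its value of 3.74 lay inside the range. The position of the 3 probe sets against the deleted exons is not known here, and directions below are between libraries as labelled. The upper quartile of all probe sets was 5.08 in DeltaKlf6 3, against 5.50 to 5.63 in the other 5 arrays. The excess of 3' over 5' signal for Gapdh, a measure related to RNA integrity, came to 3.47, 3.45 and 4.83 in DeltaKlf6 1, 2 and 3, and to 4.06 to 4.43 in the controls.

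Most replication genes had their highest value in the library labelled DeltaKlf6 2, wildtype 2 was the high array among the controls, and no member passed the test between the groups. By limma 0 of 56 members passed an adjusted p of 0.05, where the share over all 17097 genes was 0%. At an unadjusted p under 0.05 there were 3 members, all higher in DeltaKlf6, where the share of all genes was 3.69%, of which 1.21% were higher and 2.48% lower. These 3 were Gins4, Chaf1b and Pole. By group mean 43 members were higher and 13 lower in DeltaKlf6, where 48.4% of all genes were higher. The median log2 difference over the members was 0.29, against -0.01 over all genes. Without DeltaKlf6 2 the same members stood at 17 higher and 39 lower, with a median of -0.12.

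The array with the highest value shows where the members' variation lies. Of the 56 members 39 had their highest value in DeltaKlf6 2, which is 69.6%, where 18.4% of all genes did. Another 6 members were highest in wildtype 2, 4 in DeltaKlf6 1, 3 in DeltaKlf6 3, 3 in wildtype 1 and 1 in wildtype 3. No member had its lowest value in DeltaKlf6 2 or in wildtype 2, where 16.4% and 10.9% of all genes did. Within its own group, DeltaKlf6 2 was the highest array for 46 members, or 82.1%, where 33.2% of all genes had it highest. Wildtype 2 was the highest of the wildtype arrays for 46 members as well, where the share of all genes was 35.8%. DeltaKlf6 2 exceeded wildtype 2 for 46 members, where it did so for 8486 of all 17097 genes. The median of DeltaKlf6 2 minus wildtype 2 was 0.53 over the 56 members and -0.004 over all genes.

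**Figure D1:**
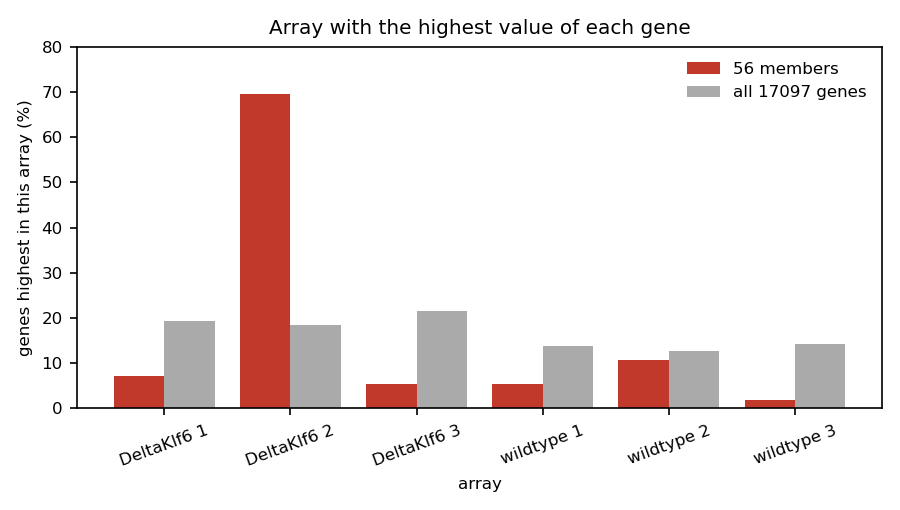
Share of genes, in percent, whose highest value over the 6 arrays was in each array, for the 56 members and for all 17097 genes. DeltaKlf6 2 holds the highest value of 69.6% of the members and of 18.4% of all genes.

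The median deviation of the members from the wildtype mean was -0.19, 1.14 and -0.01 in DeltaKlf6 1, 2 and 3, against -0.26, 0.49 and -0.19 in wildtype 1, 2 and 3. By this median DeltaKlf6 1 and 3 lay between wildtype 2 and the lowest wildtype array. Members had a median SD among animals of 0.94 in DeltaKlf6 and 0.48 in wildtype. Over all genes the median SD was 0.35 in DeltaKlf6 and 0.24 in wildtype (n = 3 animals each). The set of all genes was not matched to the members for expression level. Whole liver was measured, in which a different share of replicating cells and a different amount of RNA per cell cannot be told apart.

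**Figure D2:**
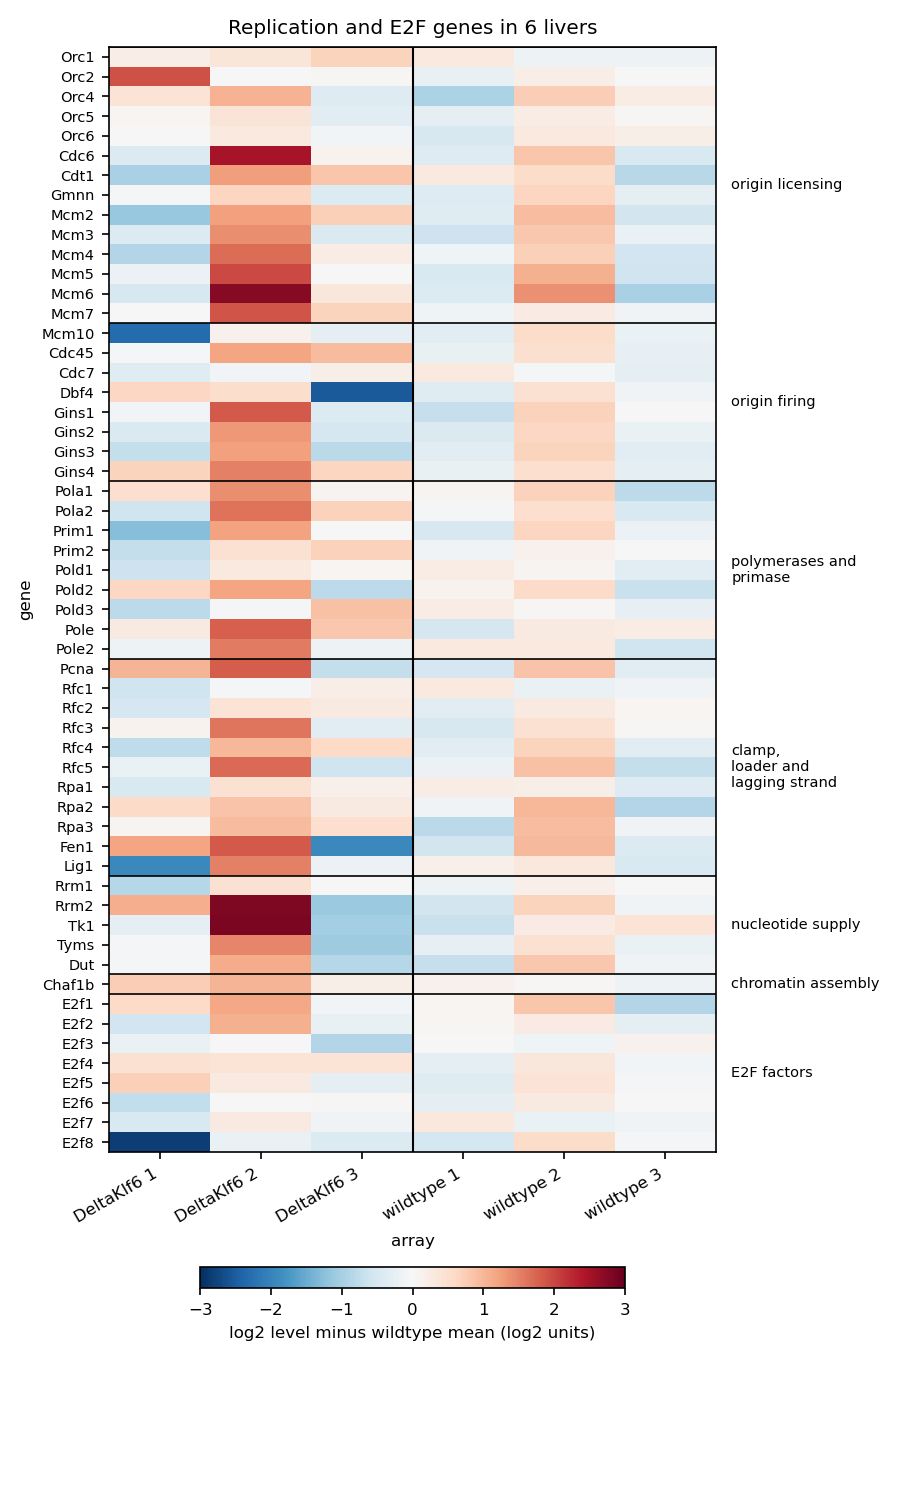
Log2 level of each of the 56 measured genes minus its wildtype mean, in log2 units, with 1 column per array and the genes ordered by role. The column of DeltaKlf6 2 has the highest value of 39 of the 56 genes, among them all 6 of Mcm2 to Mcm7 and all 5 nucleotide supply genes.

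Promoter sequence was examined because E2F proteins bind short sites near the start of many replication genes. The letters TTTCCCGC, TTTGGCGC, TTTCGCGC and TTTGCCGC were searched on both strands of RefSeq promoter windows of build GRCm38.p6, from 250 bases before to 50 bases after each start. Of 48 members with a window, the unmeasured Orc3 and Chaf1a included, 18 held at least 1 match (37.5%), where 704 of 27025 genes did (2.6%). The windows were not matched for base composition. By role, matches were found in 8 of 13 origin licensing genes, 4 of 7 polymerase and primase genes, 3 of 6 E2F genes, 2 of 10 clamp and lagging strand genes, 1 of 5 firing genes and 0 of 5 nucleotide supply genes.

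Shown here are stretches upstream of a helicase pair and a clamp loader gene with matches, all highest in DeltaKlf6 2, and of Rrm2, which was also highest there and holds none of these letters in its window. Of the members with matches, Orc1 and Pold3 were highest in DeltaKlf6 3, E2f3 in wildtype 3 and E2f7 in wildtype 1. The other measured ones were highest in DeltaKlf6 2, as were most members. A link between matches and the highest array was not tested. The stretches are written 5' to 3' on the gene's strand, lie outside the RefSeq gene, and have the matches in capitals. The Mcm6 stretch is chr1:128359706-128359905, minus strand, with matches at positions -110, -106 and -47 from the start, the first pair overlapping. The Mcm5 stretch is chr8:75109309-75109467, plus strand, with overlapping matches at -153 and -149. For Mcm5 the start that positions count from lies inside the RefSeq gene, so the stretch ends at position -42. The Rfc3 stretch is chr5:151651209-151651408, minus strand, with a match at -10, and a further match of its window lies inside the gene. The Rrm2 stretch is chr12:24708054-24708253, plus strand.
Mcm6: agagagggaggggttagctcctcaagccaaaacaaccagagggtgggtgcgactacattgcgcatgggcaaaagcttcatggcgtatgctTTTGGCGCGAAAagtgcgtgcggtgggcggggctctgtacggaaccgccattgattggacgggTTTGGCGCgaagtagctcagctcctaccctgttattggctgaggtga
Mcm5: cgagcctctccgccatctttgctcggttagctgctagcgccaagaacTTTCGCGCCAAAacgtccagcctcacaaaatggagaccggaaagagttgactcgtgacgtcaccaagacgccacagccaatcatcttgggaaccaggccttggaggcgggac
Rfc3: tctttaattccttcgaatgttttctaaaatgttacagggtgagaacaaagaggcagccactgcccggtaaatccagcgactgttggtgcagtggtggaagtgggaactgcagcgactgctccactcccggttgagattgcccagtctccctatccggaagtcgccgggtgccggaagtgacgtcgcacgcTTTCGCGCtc
Rrm2: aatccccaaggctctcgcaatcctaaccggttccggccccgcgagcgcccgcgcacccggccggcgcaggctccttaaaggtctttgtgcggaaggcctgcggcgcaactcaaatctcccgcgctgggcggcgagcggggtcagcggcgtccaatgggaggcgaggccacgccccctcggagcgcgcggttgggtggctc

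Among origin licensing genes, all 14 measured members were higher in DeltaKlf6 by group mean, with a median difference of 0.36 and a range of 0.04 to 0.86, and 0 passed the test. The genes of the MCM helicase, Mcm2 to Mcm7, had a median range over the 6 arrays of 2.46, and the measured genes of the origin recognition complex one of 0.83. That median is the value of Orc1, which lay at the level of genes without specific signal, as given below. The ranges were 2.13 for Orc2 and 1.99 for Orc4, against 0.71 for Orc5 and 0.78 for Orc6. All 6 helicase genes were highest in DeltaKlf6 2, at 1.24 to 2.73 above the wildtype mean, and wildtype 2 was the highest wildtype array for all 6. Mcm6, a helicase subunit, was at 4.54, 7.74 and 5.36 in DeltaKlf6 1, 2 and 3, against 4.61, 6.39 and 4.05 in wildtype 1, 2 and 3. Its level in DeltaKlf6 2 was 6.61-fold the wildtype mean, DeltaKlf6 1 lay inside the wildtype range, and the groups overlapped. Mcm6 averaged 5.88 ± 1.66 in DeltaKlf6 and 5.02 ± 1.22 in wildtype (SD, n = 3 each). The group difference was 0.86 (SE 0.87, limma adjusted p = 0.992), and it was -0.07 without DeltaKlf6 2.

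Mcm7, another helicase subunit, was at 5.60, 7.49 and 6.26 in DeltaKlf6 1, 2 and 3, against 5.46, 5.84 and 5.49 in wildtype 1, 2 and 3. Only DeltaKlf6 1 overlapped the wildtype range for Mcm7. The difference was 0.85 (SE 0.45, limma adjusted p = 0.992), and 0.33 without DeltaKlf6 2. In a second Mcm7 probe set DeltaKlf6 2 was again the highest array, at 6.47, but DeltaKlf6 3 was at 3.76, inside the wildtype values of 3.58 to 5.21. Mcm2 and the loading factor gene Cdt1 also depended on the probe set outside DeltaKlf6 2. In the probe sets used, DeltaKlf6 1 was 1.13 below the wildtype mean for Mcm2 and 0.97 below it for Cdt1, and DeltaKlf6 3 was 0.72 and 0.84 above. Second probe sets of both genes had DeltaKlf6 1 and 3 inside the wildtype range, with Mcm2 at 4.34, 6.45 and 4.54 in DeltaKlf6 1, 2 and 3, against 4.23, 5.60 and 4.37 in wildtype. Among all members, 18 had several probe sets above background, of which 12 had group differences of one sign and 6 of both signs, namely Orc4, Pold3, Prim1, Rfc2, Rfc3 and E2f5. Cdc6, the loading ATPase, was 2.47 above the wildtype mean in DeltaKlf6 2 and -0.40 and 0.11 from it in DeltaKlf6 1 and 3. Its group difference was 0.73, and -0.15 without DeltaKlf6 2.

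Of the origin recognition complex, which marks origins, 5 genes were measured and their median deviation in DeltaKlf6 2 was 0.37. Single genes ran from 0.01 for Orc2 to 1.03 for Orc4. Orc1, the cell cycle regulated subunit of the complex, was at 2.94, 3.11 and 3.41 in DeltaKlf6 1, 2 and 3, against 3.05, 2.59 and 2.58 in wildtype 1, 2 and 3. The difference for Orc1 was 0.41 (SE 0.24, limma adjusted p = 0.992), and 0.24 with its probe sets averaged. Its mean lay at the level of genes without specific signal in liver, gauged by 41 olfactory receptor genes, of which the 95th percentile was 3.48. By that gauge 51 of the 56 members had a mean above background, and Orc1, Cdc7, Gins3, E2f4 and E2f7 did not. Of all 17097 genes, 10419 had a mean above it. Orc2 was 1.91 above the wildtype mean in DeltaKlf6 1 alone, and its difference of 0.65 was 0.02 without that library. Gmnn, encoding geminin, the inhibitor of CDT1, differed by 0.06 and was at 7.40 in both DeltaKlf6 2 and wildtype 2, above the other 4 arrays.

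**Figure D3:**
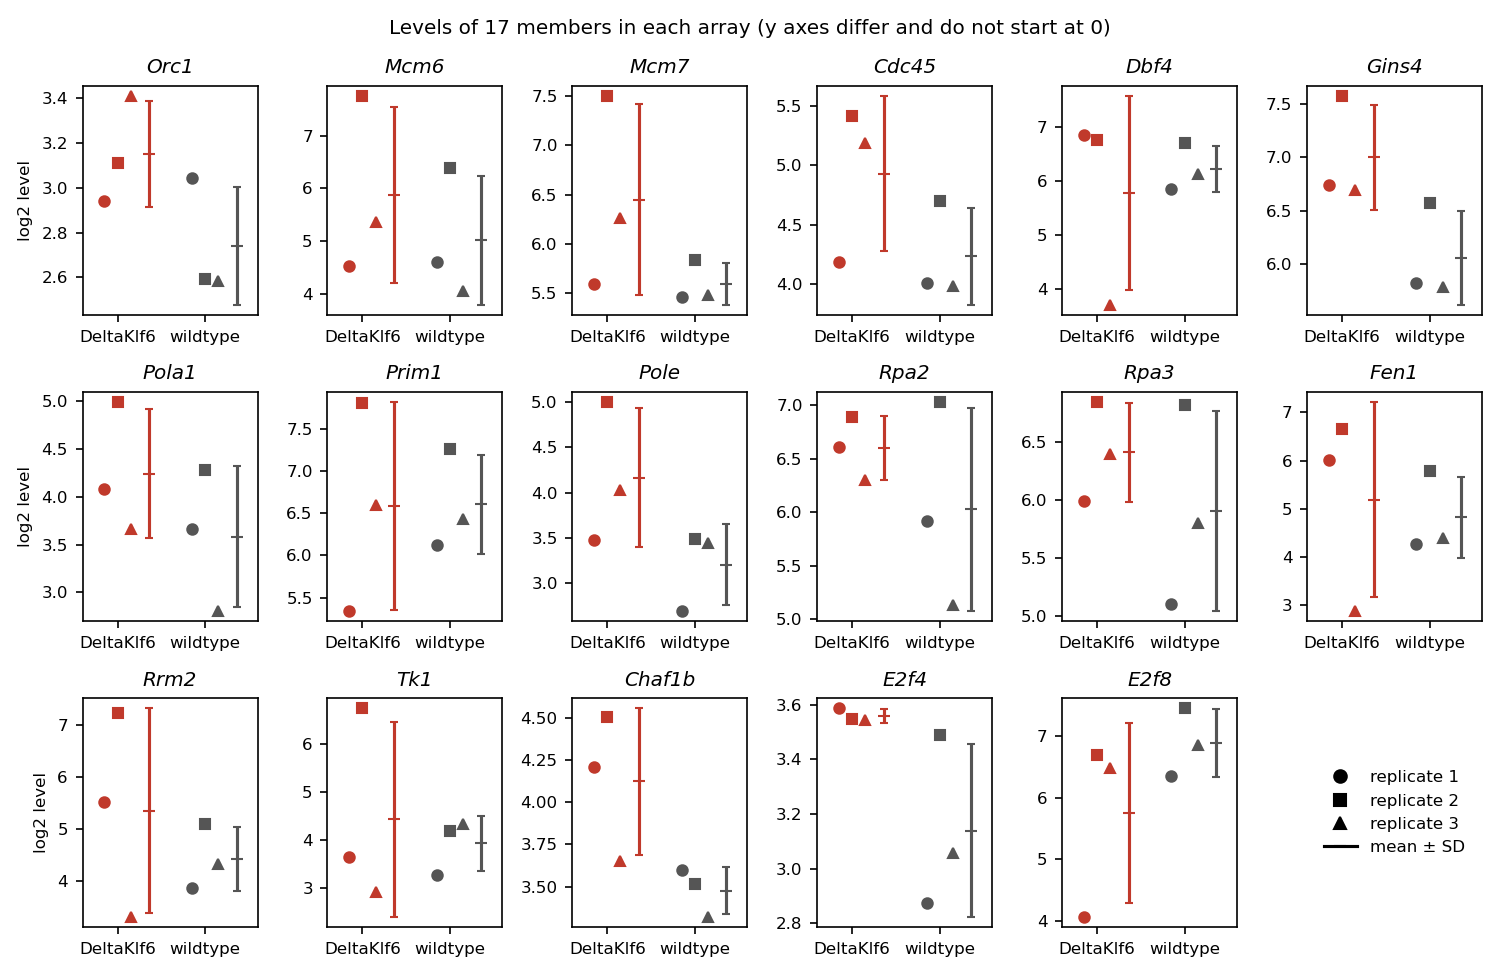
Log2 level of 17 members in each array, with DeltaKlf6 in red on the left and wildtype in grey on the right of each panel, marker shape giving the replicate number, and bars giving mean ± SD (n = 3). The panels show the genes of smallest unadjusted p and of widest range in each role, and the squares of DeltaKlf6 2 are the highest points for 12 of them.

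Origin firing genes were evenly split, with 4 higher and 4 lower by group mean and a median difference of 0.02. Gins4, a subunit of the GINS complex that activates the helicase, had the smallest unadjusted p of all members. Gins4 was at 6.74, 7.57 and 6.70 in DeltaKlf6 1, 2 and 3, against 5.83, 6.57 and 5.78 in wildtype 1, 2 and 3. The groups did not overlap, with a narrow gap between DeltaKlf6 3 and wildtype 2, and the means were 7.003 ± 0.494 in DeltaKlf6 and 6.06 ± 0.44 in wildtype (SD, n = 3 each). The difference was 0.94, or 1.92-fold (SE 0.33, limma adjusted p = 0.992). Without DeltaKlf6 2 it was 0.66. Members with separate groups numbered 3, all higher in DeltaKlf6, where the share of all genes was 3.41% for higher and 5.91% for lower. The other GINS genes did not share this separation, at 0.45 for Gins1, 0.13 for Gins2 and -0.10 for Gins3.

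Cdc45, the helicase cofactor, was at 4.19, 5.41 and 5.19 in DeltaKlf6 1, 2 and 3, against 4.01, 4.71 and 3.98 in wildtype 1, 2 and 3. DeltaKlf6 2 and 3 lay above all wildtype values for Cdc45. The difference was 0.70 (SE 0.37, limma adjusted p = 0.992), and 0.45 without DeltaKlf6 2. Dbf4, the activating subunit of the CDC7 kinase, was set apart by 1 library. Dbf4 was at 6.85, 6.75 and 3.70 in DeltaKlf6 1, 2 and 3, against 5.85, 6.69 and 6.13 in wildtype 1, 2 and 3. DeltaKlf6 3 alone was low, and the group difference of -0.45 (SE 0.78, limma adjusted p = 0.992) became 0.58 without it. Mcm10, a fork scaffold protein, was 2.31 below the wildtype mean in DeltaKlf6 1 alone, with a group difference of -0.82 that was -0.07 without that library.

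Polymerase and primase genes had 7 members higher and 2 lower, with a median difference of 0.34 and 0 past the test. Their median deviation was -0.59, 1.199 and 0.08 in DeltaKlf6 1, 2 and 3, against 0.08, 0.30 and -0.31 in wildtype 1, 2 and 3. Pole, the catalytic subunit of the leading strand polymerase epsilon, was at 3.48, 4.997 and 4.03 in DeltaKlf6 1, 2 and 3, against 2.69, 3.49 and 3.44 in wildtype 1, 2 and 3. DeltaKlf6 1 was just below wildtype 2, so that the groups overlapped, and the means were 4.17 ± 0.77 in DeltaKlf6 and 3.21 ± 0.45 in wildtype (SD, n = 3 each). The difference of 0.96 (SE 0.41, limma adjusted p = 0.992) was 0.55 without DeltaKlf6 2, below those of Orc2 and Gins4.

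Pola1, the catalytic subunit of polymerase alpha, was at 4.08, 4.99 and 3.66 in DeltaKlf6 1, 2 and 3, against 3.66, 4.28 and 2.81 in wildtype 1, 2 and 3. Its groups overlapped. The difference was 0.66 (SE 0.45, limma adjusted p = 0.992), and it was 0.29 without DeltaKlf6 2 and 0.28 without wildtype 3. Prim1, the catalytic primase subunit, was at 5.34, 7.81 and 6.59 in DeltaKlf6 1, 2 and 3, against 6.13, 7.26 and 6.43 in wildtype 1, 2 and 3. The highest and the lowest Prim1 values were both in libraries labelled DeltaKlf6, so that the means differed by -0.03 (SE 0.59, limma adjusted p = 0.999). Pold3, an accessory subunit of the lagging strand polymerase delta, was among the few members not high in DeltaKlf6 2, at -0.03 from the wildtype mean.

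Genes of the clamp, its loader and the lagging strand had 9 members higher and 2 lower, with a median difference of 0.30. Pcna, the sliding clamp, was 1.01 and 1.81 above the wildtype mean in DeltaKlf6 1 and 2 and 0.71 below it in DeltaKlf6 3, for a group difference of 0.71 (SE 0.64, limma adjusted p = 0.992) that was 0.15 without DeltaKlf6 2. Of the clamp loader genes Rfc3 and Rfc5 were 1.62 and 1.69 above the wildtype mean in DeltaKlf6 2. In a second probe set Rfc3 was 0.48 above it. Rfc1 was at -0.07 there in the probe set used and at 0.57 in a second one.

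Fen1, the flap nuclease that trims Okazaki fragments, had one of the widest spreads. It was at 6.02, 6.66 and 2.88 in DeltaKlf6 1, 2 and 3, against 4.28, 5.79 and 4.40 in wildtype 1, 2 and 3. Libraries labelled DeltaKlf6 stood on both sides of the wildtype range for Fen1. The difference was 0.36 (SE 0.92, limma adjusted p = 0.995), against 1.51 without DeltaKlf6 3 and -0.38 without DeltaKlf6 2. Lig1, the ligase that joins the fragments, was 1.93 below the wildtype mean in DeltaKlf6 1 and 1.52 above it in DeltaKlf6 2.

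For both smaller subunits of the single-strand binding protein RPA, wildtype 2 was about as high as DeltaKlf6 2. Rpa2 was at 6.61, 6.89 and 6.30 in DeltaKlf6 1, 2 and 3, against 5.92, 7.02 and 5.14 in wildtype 1, 2 and 3. Rpa3 was at 6.00, 6.85 and 6.40 in DeltaKlf6 1, 2 and 3, against 5.10, 6.82 and 5.80 in wildtype 1, 2 and 3. The differences were 0.57 (SE 0.45) for Rpa2 and 0.51 (SE 0.44) for Rpa3, with a limma adjusted p of 0.992 for each, and the wildtype spread exceeded that of DeltaKlf6 for both genes. The Rpa2 difference was 0.13 without wildtype 3, and the Rpa3 difference was 0.10 without wildtype 1. In the probe set used, Rpa1 differed by 0.05 and was 0.46 above the wildtype mean in DeltaKlf6 2. A second Rpa1 probe set above background differed by 0.28 and was 0.99 above that mean there.

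Nucleotide supply genes, with a median range over the arrays of 2.52, had the widest spread of any role. All 5 members were highest in DeltaKlf6 2, where 18.4% of all genes were. Of the 5, 4 were lowest in DeltaKlf6 3, where 25.6% of all genes were. The median deviation of the 5 was -0.06, 1.46 and -1.03 in DeltaKlf6 1, 2 and 3, against -0.55, 0.45 and -0.10 in wildtype 1, 2 and 3. By group mean 4 were higher and 1 lower, with a median difference of 0.11.

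Rrm2, the regulated subunit of ribonucleotide reductase, was at 5.51, 7.23 and 3.32 in DeltaKlf6 1, 2 and 3, against 3.88, 5.09 and 4.33 in wildtype 1, 2 and 3. Its range over the arrays, 3.91, was the widest of the 56 members, and its level in DeltaKlf6 2 was 6.94-fold the wildtype mean. Rrm2 averaged 5.35 ± 1.96 in DeltaKlf6 and 4.43 ± 0.61 in wildtype (SD, n = 3 each). The difference of 0.92 (SE 0.86, limma adjusted p = 0.992) was -0.02 without DeltaKlf6 2. A second Rrm2 probe set above background showed far less spread, at 3.72, 4.30 and 3.91 in DeltaKlf6 1, 2 and 3, against 3.87, 3.64 and 4.15 in wildtype 1, 2 and 3. There DeltaKlf6 2 was again highest, at 1.33-fold the wildtype mean, DeltaKlf6 3 was not low, and the difference was 0.09.

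Tk1, thymidine kinase of the salvage pathway, was at 3.64, 6.75 and 2.90 in DeltaKlf6 1, 2 and 3, against 3.27, 4.18 and 4.33 in wildtype 1, 2 and 3. The Tk1 level in DeltaKlf6 2 was 7.08-fold the wildtype mean, DeltaKlf6 3 was below every wildtype value, and the difference was 0.50 (SE 0.89, limma adjusted p = 0.992). It was -0.66 without DeltaKlf6 2. Rrm1, the large reductase subunit, showed little of this, at 0.46 above the wildtype mean in DeltaKlf6 2, while Tyms and Dut, which make and protect the thymidylate pool, were 1.46 and 1.12 above it.

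Chaf1b, a subunit of the chromatin assembly factor that deposits histones behind the fork, was at 4.21, 4.51 and 3.65 in DeltaKlf6 1, 2 and 3, against 3.60, 3.51 and 3.32 in wildtype 1, 2 and 3. The groups did not overlap, and the gap between DeltaKlf6 3 and wildtype 1 was small. Chaf1b averaged 4.12 ± 0.43 in DeltaKlf6 and 3.48 ± 0.14 in wildtype (SD, n = 3 each). The difference was 0.64, or 1.56-fold (SE 0.26, limma adjusted p = 0.992), and 0.45 without DeltaKlf6 2. It was 0.37 with the gene's probe sets averaged, where the second one was not above background.

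The E2F genes themselves had a median deviation of 0.27 in DeltaKlf6 2, against 1.14 for all members, and 4 were higher and 4 lower by group mean. The activators E2f1 and E2f2 were 1.16 and 1.07 above the wildtype mean in DeltaKlf6 2, and the activator E2f3 was at -0.01. E2f4, which acts mainly as a repressor in quiescent cells, was at 3.59, 3.55 and 3.54 in DeltaKlf6 1, 2 and 3, against 2.87, 3.49 and 3.06 in wildtype 1, 2 and 3. The groups did not overlap, but wildtype 2 was just under the DeltaKlf6 values and the gene was not above the olfactory gauge. The E2f4 difference was 0.42 (SE 0.23, limma adjusted p = 0.992).

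E2f8, an atypical E2F that represses E2F targets, had the most negative difference of the 56 members. It was at 4.06, 6.69 and 6.49 in DeltaKlf6 1, 2 and 3, against 6.36, 7.45 and 6.86 in wildtype 1, 2 and 3. Only DeltaKlf6 1 lay below the wildtype range. E2f8 averaged 5.75 ± 1.46 in DeltaKlf6 and 6.89 ± 0.55 in wildtype (SD, n = 3 each), and the difference was -1.14 (SE 0.67, limma adjusted p = 0.992). It was -0.30 without DeltaKlf6 1, where Dbf4 had the most negative difference, and -0.54 with the gene's probe sets averaged. The second E2f8 probe set was not above the gauge. Its partner E2f7 was not above the gauge and differed by -0.10. E2f5 and E2f6, which act as repressors, differed by 0.23 and -0.23. Second probe sets above the gauge differed by -0.03 for E2f5 and -0.65 for E2f6.

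**Figure D4:**
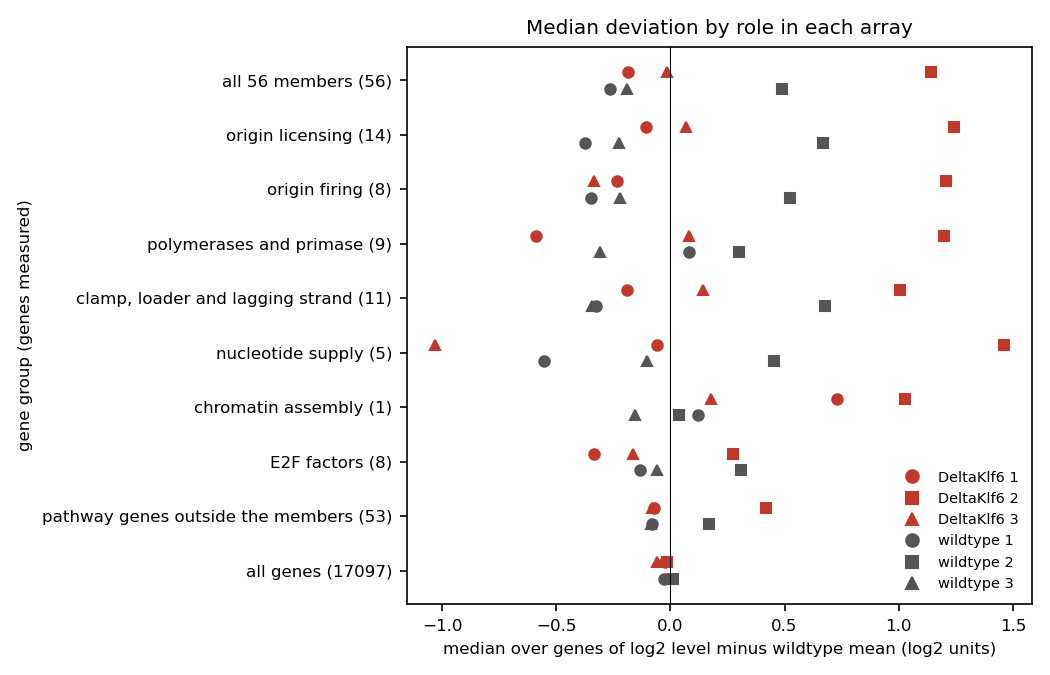
Median over the genes of each role of the log2 level minus the wildtype mean, in log2 units, for each array, with DeltaKlf6 in red above wildtype in grey in each row. DeltaKlf6 2 is the rightmost point of every role except the E2F factors, where it is at 0.27 and wildtype 2 at 0.31.

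**Figure D5:**
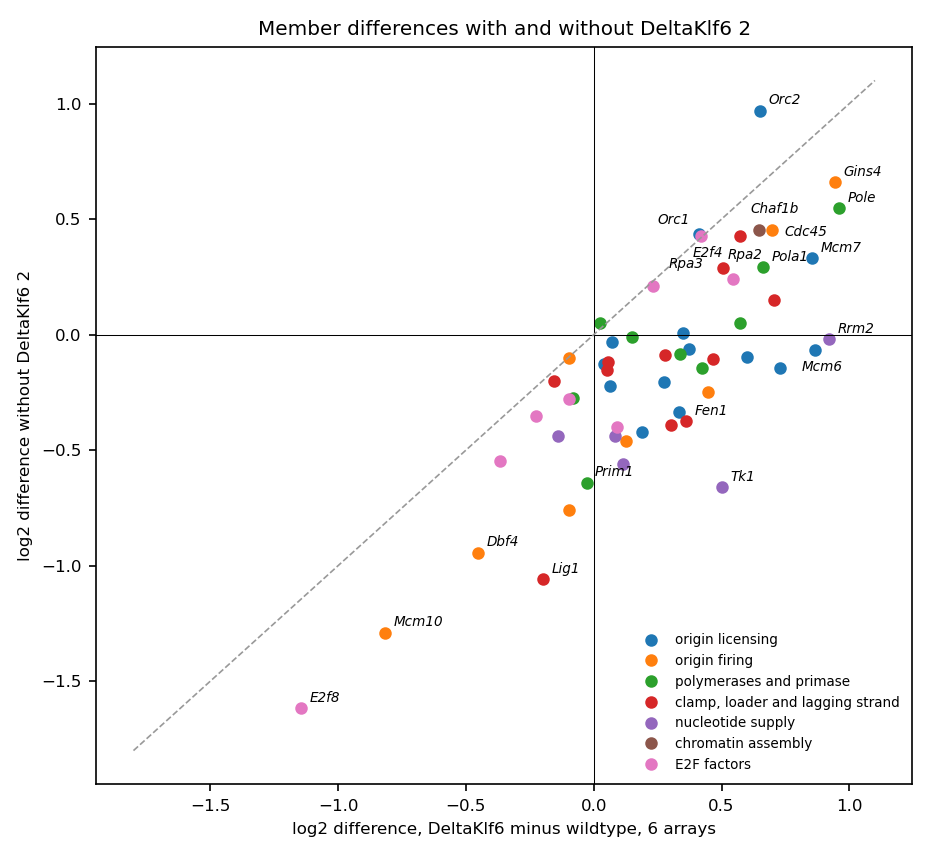
Log2 difference of each member over all 6 arrays (x axis) against the same difference without DeltaKlf6 2 (y axis), coloured by role, with a dashed line of equal values. Most points with a positive x value lie below 0 on the y axis, and the members higher by group mean number 43 with DeltaKlf6 2 and 17 without it.

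Other genes of the pathway were read from the same fit. Of 60 listed genes 53 were measured, 32 were higher and 21 lower by group mean, with a median difference of 0.07, and 0 passed the test. Separate groups were found for 5 genes higher in DeltaKlf6, namely Tfdp2, Ccne1, Cdk4, Fbxo5 and Recql4. They were found for 2 lower genes, Rrm2b among them. The share of all genes was 3.41% for higher and 5.91% for lower. DeltaKlf6 2 was the highest array for 27 of the 53, or 50.9%. Further replisome and firing genes had it highest in 11 of 16, among them Recql4, a helicase used in origin firing, with a difference of 0.42, and Mcmbp, which binds MCM proteins, with 0.65. Recql4 was not above the olfactory gauge. Without DeltaKlf6 2 these differences were 0.15 and 0.24. The same list held Rnaseh2a, a ribonuclease H subunit, at 0.90, or 0.57 without DeltaKlf6 2, and Pole3, a polymerase epsilon subunit, at -0.23.

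In the group of pocket proteins, E2F partners and their complex members, DeltaKlf6 2 was highest for 3 of 10. Tfdp2, a dimerization partner of E2F, was at 6.39, 5.49 and 5.55 in DeltaKlf6 1, 2 and 3, against 4.89, 5.27 and 4.37 in wildtype 1, 2 and 3, so that the groups did not overlap (difference 0.97, SE 0.33, limma adjusted p = 0.992). Rb1, the retinoblastoma protein gene, differed by -0.49, Lin52 by -0.25 and Lin54 by -0.37. The last was 0.11 without DeltaKlf6 3. Among genes that control S phase entry, Ccne1, encoding cyclin E1, was at 6.85, 6.44 and 6.34 in DeltaKlf6 1, 2 and 3, against 5.62, 5.05 and 5.48 in wildtype 1, 2 and 3. The groups did not overlap, and the difference was 1.16 (SE 0.25, limma adjusted p = 0.992). Ccna2, encoding cyclin A2, differed by 0.84, Cdk4 by 0.38 and Fbxo5 by 0.48. Without DeltaKlf6 2 the differences of Ccna2 and Fbxo5 were 0.26 and 0.29. Of further nucleotide and chromatin genes, Rrm2b, the p53-inducible reductase subunit, differed by -0.65 with separate groups, the deoxycytidine kinase gene Dck by 0.76, Dctpp1 by 0.37 and Shmt1 by -1.07. Shmt1 was low in DeltaKlf6 1 alone, at 5.33, and its difference was 0.22 without that library. The Dctpp1 difference was 0.04 without DeltaKlf6 2, and that of Dck was 0.44 without DeltaKlf6 3.

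Markers of other liver cells were set beside these values. Kupffer cell markers were high in DeltaKlf6 2. All 8 were measured and above the olfactory gauge, 7 of them were highest in DeltaKlf6 2, and their median deviation there was 0.82. Summed on the linear scale they reached 2617, 4233 and 2965 in DeltaKlf6 1, 2 and 3, and 2434 to 2815 in the controls. Stellate cell markers, 6 of 7 above the gauge and Col1a1 not, were highest in DeltaKlf6 2 for 5 genes, and summed to 1009, 1405 and 460 in DeltaKlf6 1, 2 and 3, and to 758 to 1084 in the controls. Their part in the members' values was not tested.

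Hepatocyte markers gave summed levels of 50719 to 59180 in DeltaKlf6 and 53132 to 54799 in wildtype, and 2 of 9 were highest in DeltaKlf6 2. Erythroid markers, 4 of 6 listed being measured and all 4 above the gauge, were highest in DeltaKlf6 2 for 0 genes and summed to 2607 to 3663 in DeltaKlf6 and 2098 to 2590 in wildtype. Endothelial, neutrophil and lymphocyte markers were highest in DeltaKlf6 2 for 1 of 8, 1 of 7 and 1 of 7 genes, and cholangiocyte markers for 0 of 4. Summed endothelial markers were at 1359 to 1468 in DeltaKlf6 and 1465 to 1574 in wildtype, and neutrophil markers at 252 to 536 in DeltaKlf6 and 269 to 540 in wildtype. Lymphocyte markers summed to 70 to 88 in DeltaKlf6 and 78 to 87 in wildtype, and cholangiocyte markers to 37 to 53 in DeltaKlf6 and 32 to 53 in wildtype. Not above the gauge were Mpo and Ltf of the neutrophil markers, Cd3g, Cd4, Ms4a1 and Ncr1 of the lymphocyte markers, and Krt7, Krt19 and Sox9 of the cholangiocyte markers. The Gapdh 3' excess was lowest in DeltaKlf6 2 and nearly as low in DeltaKlf6 1. That of actin was 4.22, 3.998 and 5.05 in DeltaKlf6 1, 2 and 3, and 4.86 to 5.39 in the controls. The part of RNA integrity in the members' values was not tested.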

How the data were processed

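Liver RNA of 6 mice was measured on 1-channel Affymetrix arrays. Per the submitters' processing notes, the authors ran RMA in Affymetrix Expression Console 1.2.1. The deposited values are on a log2 scale, a base inferred here from the highest value, 13.9, which is within the log2 range of a 16-bit scanner. A build or probe annotation is not given in the sources used here. Of 45141 probe sets, 28898 had a single symbol in the platform annotation, 551 had several and 15692 had none here, and 0 symbols changed through RefSeq.

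DeltaKlf6 was compared with wildtype over all 17097 genes with limma 3.58.1 in R 4.3.3, with genotype as the factor, two-sided, with Benjamini-Hochberg adjustment. Members, lists and alternatives were chosen with earlier results of these data known. Values in all arrays are given for members with separate groups and, per role, the 2 of smallest unadjusted p and the 1 of widest range, and up to 4 pathway genes per list are named by unadjusted p. Other values were named after they were seen. The fit was tested on simulated data with the spread of these arrays. There 16% of the genes changed by 1 log2 unit passed the threshold, and 72% of those changed by 2. The changed genes were drawn from all genes, with a median SD of 0.35 in DeltaKlf6 and 0.24 in wildtype. The members had a larger spread, at 0.94 and 0.48, and recovery of genes with that spread was not simulated. The number of arrays limits the precision. Alternatives were other probe set summaries, scalings, variance models, array weights, a replicate block and each array left out. Leaving out DeltaKlf6 2 and wildtype 2 together was added after seeing the data.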

Additional observations from a re-analysis of the deposited data

How the results depend on the processing

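No gene, member or pathway gene passed an adjusted p of 0.05 under limma in any alternative. With all 6 arrays 631 genes had an unadjusted p under 0.05. The median difference over the members stayed between 0.21 and 0.38 under the other summaries, scalings and variance models and was reversed, at -0.12, without DeltaKlf6 2. With 1 array left out, or DeltaKlf6 2 and wildtype 2 together, it ran from -0.12 to 0.59. It was 0.50 without DeltaKlf6 1, 0.50 without DeltaKlf6 3, 0.59 without wildtype 2, 0.11 without wildtype 1, 0.10 without wildtype 3 and 0.10 without the pair, with 35 of 56 members higher in the last case.

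Members at an unadjusted p under 0.05 numbered 3 (3.69% of all genes), against 1 of 40 with dim genes left out (3.87%) and 0 to 7 with arrays left out (2.22% to 9.04%). Members with separate groups numbered 3 (9.32% of all genes in either direction), against 5 with probe sets averaged (8.94%), 5 with shared probe sets left out (9.23%), 1 with dim genes left out (9.8%) and 3 to 13 with arrays left out (16.4% to 32.8%), where fewer arrays separate more easily. DeltaKlf6 2 was the highest array for 39 to 43 members when another array was left out. It was highest for 39 with probe sets averaged and for 38 when shared probe sets were left out. That count was 35 with arrays median-centred and 34 after renewed quantile normalization. With the replicate number as a block, 9 members had an unadjusted p under 0.05, 8 higher and 1 lower (4.11% of all genes), and 0 passed. Over all genes the deviations of same-numbered arrays had correlations of -0.01, 0.26 and 0.08 for replicates 1, 2 and 3. Between arrays of different number they ran from -0.17 to 0.09, so that the pair numbered 2 had the largest. The labels do not say whether the numbers pair the animals, and the main fit did not use them. Shared handling of same-numbered arrays was not tested.

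Of 17 members given in full, 4 changed sign without DeltaKlf6 2. The Dbf4 difference was 0.04 with array weights and -0.99 to 0.58 with arrays left out. That of Prim1 was 0.049 with probe sets averaged, 0.105 after renewed quantile normalization, 0.026 with array weights and -0.64 to 0.59 with arrays left out. Rpa2 was at -0.061 with probe sets averaged, where its second probe set was not above background. With arrays left out Fen1 ran from -0.38 to 1.51, Mcm6 from -0.066 to 1.55, Rrm2 from -0.018 to 1.94, Tk1 from -0.66 to 1.27 and E2f8 from -1.62 to -0.30. Rrm2 was at 0.50 with probe sets averaged. The causes were not tested. The table holds no detection calls, and 51 members lay above the 95th percentile of olfactory receptor genes, 48 above the 99th and 56 above the median.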
